A study of Culter alburnus with 9 samples.

Results

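The genes described here encode the antigen-presenting molecules of the major histocompatibility complex (MHC) and the proteins that load them, in the topmouth culter Culter alburnus, a freshwater cyprinid. They were taken from the annotated expression table by their descriptions. A locus was included if its best protein match was described with the words MHC class, histocompatibility or beta-2-microglobulin, or if its Swiss-Prot name was tap1, tap2, tapbp, cd74 or ciita. The rule found 75 of 29791 loci, 71 by the words and 4 by the name alone. They comprise 29 class I chain loci, 18 class II alpha chain loci, 16 class II beta chain loci and 12 others. The 12 others are 2 beta-2-microglobulin loci, 2 cd74 loci, ciita, tap1, 2 tap2 loci, tapbp, 2 rfx1 loci and hm13.

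The 9 fish were F1 juveniles aged 2 months, bred by crossing CRISPR/Cas9-edited founders that carried the same type of runx2b mutation, and no treatment was given. They comprised 3 wild-type (Ctrl), 3 runx2b heterozygous (He) and 3 runx2b homozygous mutant (Ho) fish. Each fish gave 1 poly(A) RNA-seq library from trunk tissue that held myosepta, the connective tissue sheets in which intermuscular bones form, together with the muscle around them. The fish were chosen from genotyped F1 juveniles for similar size and a bone phenotype typical of the genotype, and were not drawn at random. Each library held between 15869084 and 21009438 counts in total, of which the MHC loci took 0.0130% to 0.0410%. Fast muscle genes, the defining genes of the labelled tissue, were abundant in all 9 fish, with a summed level of 168000 to 387000 CPM, the count scaled to a library of 1000000 counts, and runx2b itself had 0 to 27 counts per fish with overlapping ranges, so it checked no label. Transcripts of skin epithelial genes were also present, and the tissue they came from was not tested. The summed level of 50 epithelial loci ranged from 224 to 2920 CPM, and it was highest in Ctrl 1 (2920 CPM), Ctrl 2 (1290 CPM) and Ho 2 (1240 CPM) and at most 570 CPM in the other 6 fish.

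MHC class I molecules sit on most nucleated cells and show peptides from inside the cell to CD8 T cells. Each consists of a heavy chain, the class I chain, held by the light chain beta-2-microglobulin, and its peptides are pumped into the endoplasmic reticulum by the transporter tap1 and tap2 and loaded with the help of tapasin (tapbp). Class II molecules pair an alpha with a beta chain, are made mainly by dendritic cells, macrophages and B cells, and show peptides from engulfed material to CD4 T cells. The invariant chain cd74 escorts them, and the transactivator ciita switches their genes on. In bony fishes the class I and class II genes do not form the joint complex known from mammals, the chain families are large, and the chains carried can differ between individuals.

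The chain loci were scattered over the assembly. Of the 29 class I chain loci, 9 lay on chromosome 19, 7 on chromosome 3, 5 on chromosome 10, 3 on chromosome 24 and 3 on chromosome 8, and 2 were assembled from reads and carried no position here. A class I peptide-binding domain was annotated in 25 of the 29, and 11 carried the Swiss-Prot name of MR1, which in mammals presents vitamin metabolites. Class II alpha chain loci lay on 9 chromosomes and beta chain loci on 8. In 14 places an alpha chain locus was the direct neighbour of a beta chain locus, on chromosomes 3, 4, 8, 13 and 22. Names such as H2-Q10 or HLA-DPA1 come from the closest Swiss-Prot protein of a mammal and do not identify the fish gene as its counterpart. The words in the rule also drew in 3 loci that are no antigen-presenting genes. The rfx1 loci encode DNA-binding factors of the RFX family, and hm13 encodes signal peptide peptidase, a protease of the endoplasmic reticulum.

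Most chain loci were barely transcribed in the tissue. Of the 75 loci, 8 had 0 counts in all 9 fish and 36 reached 10 counts in at least 1 fish. Under 10 counts in every fish were found at 14 of 29 class I chain loci, at 14 of 18 class II alpha loci and at 11 of 16 class II beta loci. The filter of edgeR for enough counts left 25 of the 75 loci for testing. These were 8 class I chains, 2 class II alpha chains, 4 class II beta chains and 11 of the 12 others. A locus can pass such a filter through the genotype in which it is high, so the 25 do not stand for all 75. The chains belong to multigene families, and reads shared between near-identical copies could have been split among them, so that counts of single chain loci are uncertain in this respect.

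The most abundant transcripts were those of the invariant chain and the light chain, far above the chains that bind peptide. Levels of different loci are given as CPM divided by locus length (CPM per kb). The cd74 locus ABG768_006835 (chromosome 14, 32615468 to 32620532, assembly ASM4018292v1, as for all positions below) had a median of 58.5 CPM per kb over the 9 fish, with a range of 34.2 to 93.1. The beta-2-microglobulin-like locus ABG768_026147 on chromosome 8 had a median of 49.8 CPM per kb (42.4 to 82.7), and the other cd74 locus, ABG768_015506 on chromosome 21, a median of 35.0 CPM per kb (17.0 to 60.4). The most abundant chain by mean CPM per kb, the class I chain ABG768_026397, had a median of 3.02 CPM per kb (2.47 to 4.30). The order of the chains depended on the scale. By the mean of the deposited TPM, a length-scaled value, the class II beta chain ABG768_026316 (7.12 TPM) stood above ABG768_026397 (3.56 TPM), whereas by mean CPM per kb it stood below it (1.39 against 3.24). The counts of ABG768_026316 were close to those of its neighbour ABG768_026315, a locus of like length, but its TPM was 30.86 in Ctrl 2 and 21.08 in He 2, against 3.11 and 5.48 for ABG768_026315. The summed level of the beta-2-microglobulin loci was 3.39 to 7.60 times that of the 27 class I chains with a position (median 5.69). The summed level of the cd74 loci was 13.9 to 99.4 times that of all class II alpha chains (median 34.8), and the widest ratio belonged to He 3, in which the leading alpha chain was at 0. Ratios to cd74 and to beta-2-microglobulin count only transcripts, and chains not in the assembly or not described as MHC are left out of them.

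**Figure D1:**
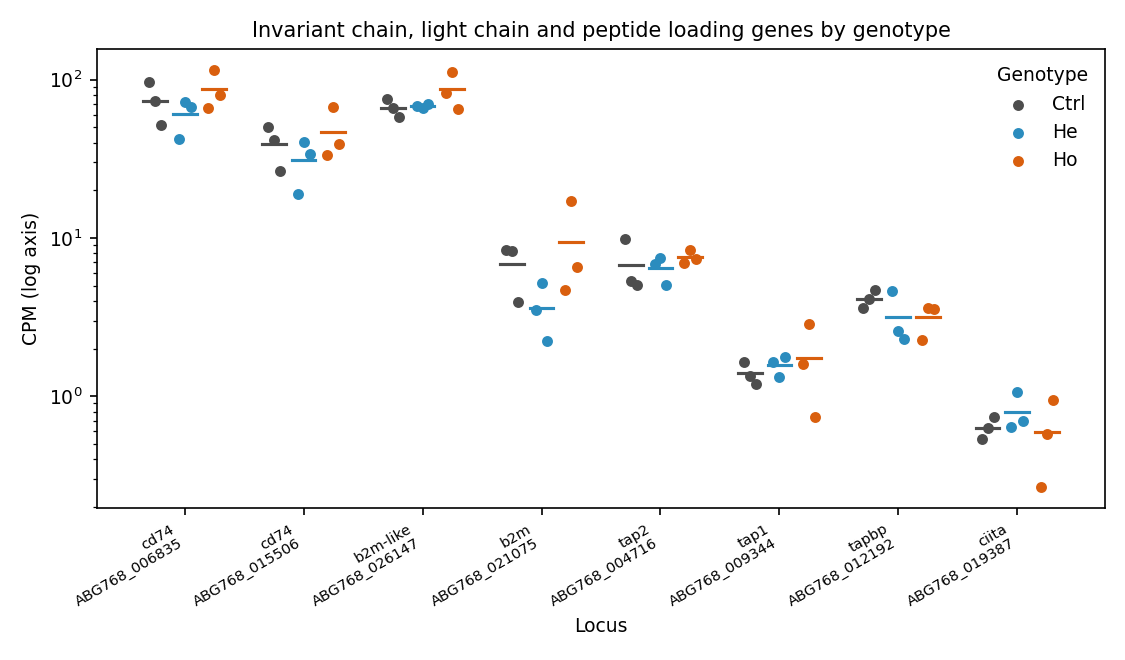
Level of the invariant chain, light chain and peptide loading genes by genotype. Each point is 1 fish, the vertical axis is CPM on a log axis, and the line marks the mean of 3 fish. The Ctrl, He and Ho points overlap at all 8 loci.

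Invariant chain transcripts varied among the fish of each genotype, and no difference between genotypes passed the test. The cd74 locus ABG768_006835 had 2166, 1630 and 692 counts in wild-type fish 1 to 3, 595, 1639 and 1051 in heterozygotes 1 to 3, and 1226, 2001 and 1186 in homozygotes 1 to 3. Its level was 73.6 CPM on average in Ctrl, 60.5 CPM in He and 86.8 CPM in Ho, and the 3 ranges overlapped. The log2 fold change from edgeR was -0.28 (standard error, SE, 0.33) in He against Ctrl, 0.24 (SE 0.33) in Ho against Ctrl and 0.52 (SE 0.33) in Ho against He, and none passed (adjusted p of at least 0.777). The approximate 95% interval for Ho against Ctrl, from -0.41 to 0.88, leaves room for a modest change in either direction. The other cd74 locus, ABG768_015506, had 1126, 932 and 355 counts for the wild-type fish, 268, 922 and 530 for the heterozygotes and 619, 1177 and 584 for the homozygotes, with the same fish high and low. In the 9 fish, the level per kb of ABG768_006835 was 1.54 to 2.01 times that of ABG768_015506.

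The light chain genes differed in how evenly they were transcribed. The beta-2-microglobulin-like locus ABG768_026147 stood at 66.4 ± 8.98 CPM (SD, n = 3 fish) in Ctrl, 68.0 ± 2.20 CPM in He and 86.9 ± 23.9 CPM in Ho. Its log2 fold change was 0.03 (SE 0.25) in He against Ctrl and 0.39 (SE 0.25) in Ho against Ctrl, with adjusted p of 0.977 and 0.838 from edgeR. The beta-2-microglobulin locus ABG768_021075 (chromosome 4, 11085675 to 11087726) was lower and more variable, with 189, 185 and 53 counts for the wild-type fish, 49, 117 and 35 for the heterozygotes and 88, 300 and 97 for the homozygotes. Ho 2 was the highest of the 9 fish and He 3 the lowest. Of the tested MHC loci, ABG768_021075 had the smallest unadjusted p in Ho against He (0.0277), with a log2 fold change of 1.38 (SE 0.53) and an adjusted p of 0.730, so it did not pass. Leaving out each fish in turn gave log2 fold changes of 0.62 to 1.73. The level of ABG768_026147 per kb was 5.87 times that of ABG768_021075 in Ho 2 and 28.4 times in He 3.

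Genes of peptide loading were low, and none of them passed the test in any comparison. The tap2 locus ABG768_004716 (chromosome 12, 20895416 to 20906150), a subunit of the peptide pump, had 222, 120 and 68 counts for the wild-type fish, 97, 170 and 79 for the heterozygotes and 130, 145 and 109 for the homozygotes, with log2 fold changes of -0.07 (SE 0.28) in He against Ctrl and 0.15 (SE 0.28) in Ho against Ctrl. Its partner tap1 (ABG768_009344, chromosome 16) had 37, 30 and 16 counts for the wild-type fish, 23, 30 and 28 for the heterozygotes and 30, 50 and 11 for the homozygotes. A further tap2 locus, ABG768_012185, lay on chromosome 19 among the class I chains (32481971 to 32486068) and had 0 to 14 counts per fish, too few for the test. The tapasin-like locus tapbp (ABG768_012192, chromosome 19, 32638130 to 32641502) had 81, 92 and 63 counts for the wild-type fish, 65, 59 and 36 for the heterozygotes and 42, 63 and 53 for the homozygotes, a log2 fold change of -0.39 (SE 0.32) in both mutants against Ctrl (adjusted p = 0.699 for He, adjusted p = 0.881 for Ho). The approximate 95% interval for tapbp ran from -1.01 to 0.24 in He against Ctrl.

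The transactivator ciita (ABG768_019387, chromosome 3), which induces class II genes in mammals, had 12, 14 and 10 counts for the wild-type fish, 9, 24 and 11 for the heterozygotes and 5, 10 and 14 for the homozygotes. The counts overlapped between all genotypes, and the log2 fold change was 0.35 (SE 0.50) in He and -0.10 (SE 0.51) in Ho against Ctrl. The rfx1 locus ABG768_001093 was even across fish, at 82 to 145 counts. The signal peptide peptidase hm13 (ABG768_016090, chromosome 22) had 190, 186 and 91 counts for the wild-type fish, 112, 211 and 92 for the heterozygotes and 99, 99 and 90 for the homozygotes. Scaled to CPM, all 3 Ho fish lay below all 3 Ctrl fish, at a log2 fold change of -0.47 (SE 0.21 and adjusted p = 0.768 from edgeR), which did not pass.

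Among the class I chains, transcripts were concentrated in a few loci. ABG768_026397 (chromosome 8, 17173307 to 17399626) held 15.4% to 45.0% of the summed class I chain level per kb in the 9 fish. It had 61, 61 and 43 counts for the wild-type fish, 64, 102 and 41 for the heterozygotes and 56, 65 and 57 for the homozygotes, so it was present at a like level in every fish. Its log2 fold change was 0.44 (SE 0.27) in He and 0.29 (SE 0.27) in Ho against Ctrl, with adjusted p of 0.594 and 0.899 from edgeR. ABG768_012345 on chromosome 19 had 11 to 52 counts and held 6.63% to 26.2% of the class I level. The MR1-named locus ABG768_017995 on chromosome 24 had 1 to 26 counts and did not reach the test. The 2 assembled class I loci were 251 bases long with 0 to 3 counts per fish. They ranked high by mean of the deposited TPM, but 9th and 17th of the 29 by CPM per kb. The remaining class I chains with 10 or more counts in a fish were ABG768_012348, ABG768_012353 and ABG768_012354, with 4 to 22 counts in every fish, and loci that were at or near 0 in some fish.

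**Figure D2:**
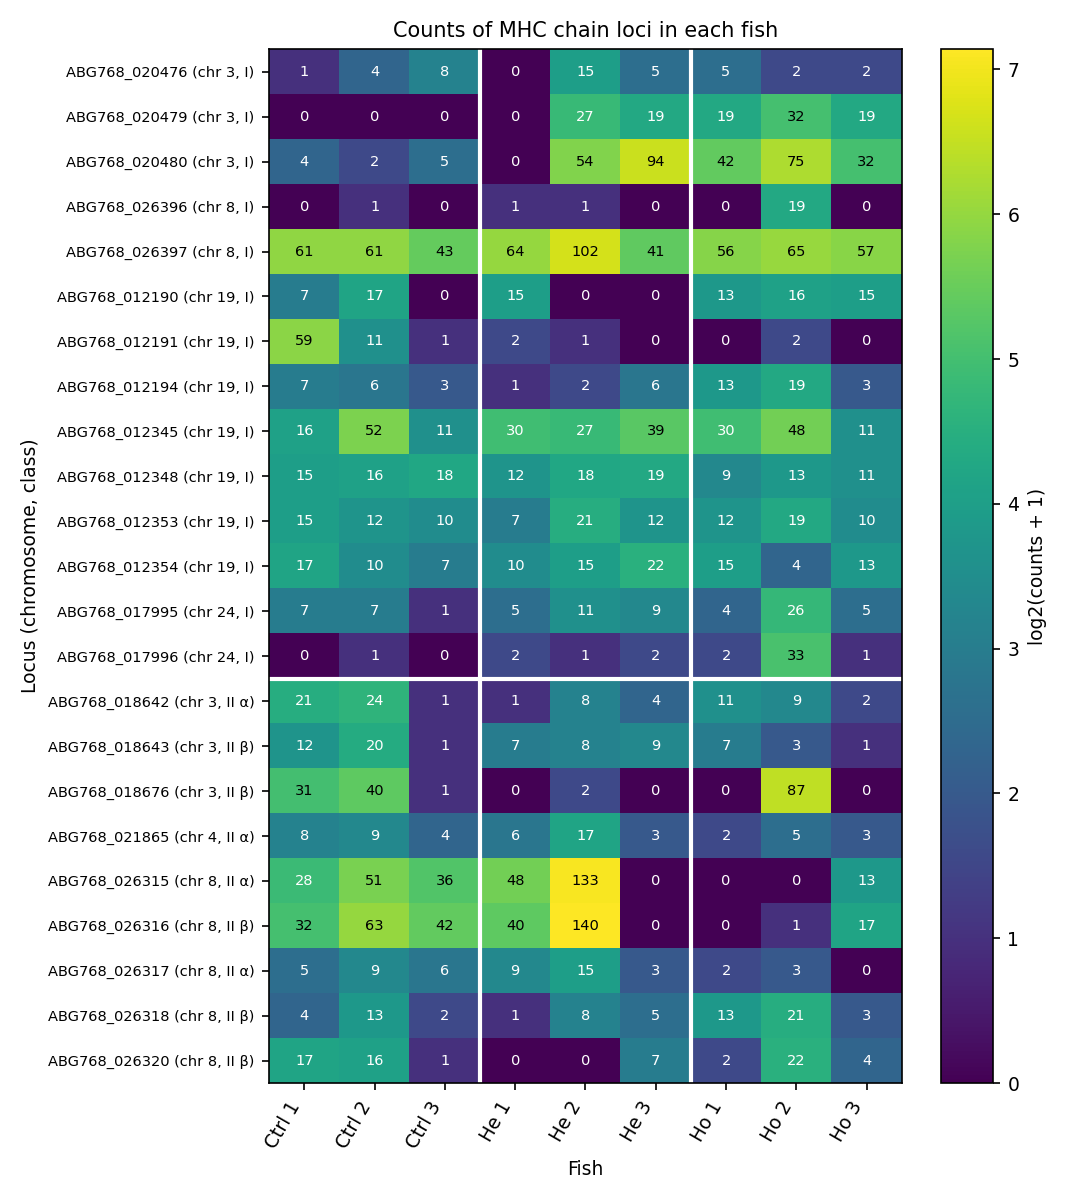
Counts in each fish at the MHC chain loci with at least 15 counts in 1 fish. Rows are loci, columns are the 9 fish, colour is log2 of the count plus 1 and the printed numbers are counts. Loci such as ABG768_026397 were counted in every fish, whereas ABG768_020479, ABG768_026315 and ABG768_018676 were at 0 in some fish and reached 32 or more counts in another.

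The class I locus ABG768_020479 was read only in mutants. This locus (chromosome 3, 65684324 to 65705778) is described as an MHC class I-related gene protein and carries a class I peptide-binding domain. It had 0, 0 and 0 counts for the wild-type fish, 0, 27 and 19 for the heterozygotes and 19, 32 and 19 for the homozygotes. Thus 5 of 6 mutant fish held 19 to 32 counts, and He 1 was at 0 like the 3 wild-type fish. With the 3 Ctrl libraries as a group set at the limit that a count of 0 allows (3 counts), the level was at least 17.0-fold higher in He and at least 26.7-fold higher in Ho. The limit covers counting error only. The fitted log2 fold change from edgeR, which depends on the small value added to 0, was 6.89 (SE 1.75) in He and 7.64 (SE 1.69) in Ho against Ctrl. The unadjusted p was 0.00477 and 0.00227, and the adjusted p of 0.359 and 0.640 did not pass. DESeq2, another count test, gave log2 fold changes of 6.39 and 7.17 (adjusted p = 0.00846 for He, adjusted p = 0.00362 for Ho), so by that tool the locus passed in both. With each fish left out in turn, the DESeq2 log2 fold change ran from 5.98 to 6.97 in He and from 6.89 to 7.41 in Ho. The DESeq2 call in He against Ctrl was lost without Ctrl 1 (adjusted p = 0.128), Ctrl 2 (adjusted p = 0.121) or He 3 (adjusted p = 0.0769). DESeq2 then called 24, 57 and 82 of all loci, against 252 with all fish. The call in Ho against Ctrl was lost without Ctrl 1 (adjusted p = 0.0832), Ctrl 2 (adjusted p = 0.0984) or Ho 2 (adjusted p = 0.0606). DESeq2 then called 13, 11 and 15 of all loci, against 63 with all fish.

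ABG768_020480, the next class I chain on chromosome 3, was highest in the same 5 fish and was read at 2 to 5 counts in the wild type. It lies 99.7 kb from ABG768_020479 (65805432 to 65873754) and has the Swiss-Prot name H2-Q10, a mouse class I chain. It had 4, 2 and 5 counts for the wild-type fish, 0, 54 and 94 for the heterozygotes and 42, 75 and 32 for the homozygotes. He 1 was again at 0, and the other 5 mutants had at least 32 counts against at most 5 in Ctrl. The log2 fold change from edgeR was 3.78 (SE 1.26 with an adjusted p of 0.388) in He and 3.83 (SE 1.26 with an adjusted p of 0.728) in Ho against Ctrl. By DESeq2 the adjusted p was 0.0435 in He and 0.0903 in Ho. The He call of DESeq2 was lost when loci with few counts were kept (adjusted p = 0.0575). It was also lost when any fish except Ctrl 3 and He 1 was left out. The adjusted p then ran from 0.0502 without Ho 2 to 0.493 without He 3. DESeq2 called 24 to 323 of all loci in He against Ctrl in these settings, against 252 with all fish. The Ho call was gained without Ctrl 3 (adjusted p = 0.024), He 1 (adjusted p = 3.41e-05) or He 3 (adjusted p = 0.0469). In these settings DESeq2 called 534, 93 and 105 of all loci in Ho against Ctrl, against 63 with all fish. In those 5 mutants, ABG768_020480 held 19.9% to 40.1% of the class I chain level per kb and ABG768_020479 held 8.54% to 13.4%. In He 1 and the wild-type fish, these were 0% to 5.53% and 0%. Without these 2 loci, the summed class I level of the remaining 25 chains with a position was 5.94 to 8.03 CPM per kb in Ctrl, 8.0 to 9.26 in He and 7.05 to 13.4 in Ho. With them it was 6.34 to 8.22 in Ctrl, 9.26 to 15.8 in He and 10.8 to 20.2 in Ho, a separation that was absent in the deposited TPM (5.15 to 12.2 in Ctrl, 6.05 to 13.6 in He and 9.90 to 22.1 in Ho).

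**Figure D3:**
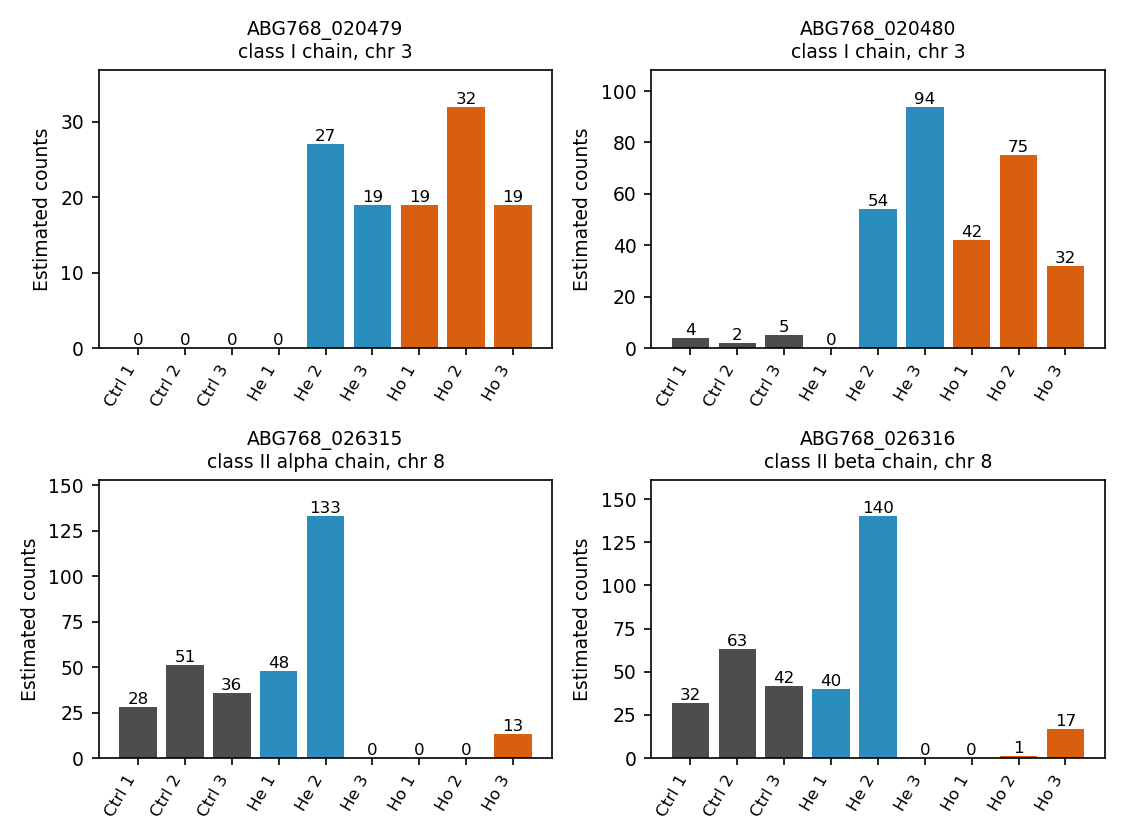
Estimated counts of 2 pairs of neighbouring MHC loci in each fish. Bars are fish, in grey for Ctrl, blue for He and orange for Ho, and the number on each bar is its count. The class I loci ABG768_020479 and ABG768_020480 were at 0 in He 1 and read in the other 5 mutants, and the class II loci ABG768_026315 and ABG768_026316 were at 0 in He 3 and Ho 1.

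Of the other genes around this pair, those with enough counts for the test were counted in all fish. Within 500 kb of ABG768_020479 lay 22 other loci, of which 5 had enough counts for the test. Their log2 fold changes ran from -0.46 to 0.74 in He and from -0.75 to 1.06 in Ho against Ctrl, and none of the 5 had a fish at 0. Of the 17 loci with too few counts for the test, 13 were at 0 in at least 1 fish. In He and in Ho against Ctrl, 1 of the 5 had an unadjusted p under 0.05 in edgeR, beside 10.4% and 6.5% of all loci. ABG768_020480 and other MHC loci were left out of this count.

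The leading class II genes were a neighbouring alpha and beta chain that were at or near 0 in 3 mutants. The alpha chain ABG768_026315 (chromosome 8, 13131143 to 13133804) had 28, 51 and 36 counts for the wild-type fish, 48, 133 and 0 for the heterozygotes and 0, 0 and 13 for the homozygotes. The beta chain ABG768_026316, 2.28 kb further on (13136087 to 13138406), had 32, 63 and 42 counts for the wild-type fish, 40, 140 and 0 for the heterozygotes and 0, 1 and 17 for the homozygotes. Both were thus counted in all 3 wild-type fish, in He 1 and He 2, and weakly in Ho 3. They had 0 or 1 counts in He 3, Ho 1 and Ho 2. The log2 fold change of ABG768_026315 was -2.89 (SE 1.54 with an adjusted p of 0.807) in Ho against Ctrl and -3.49 (SE 1.54 with an adjusted p of 0.730) in Ho against He. For ABG768_026316 these were -2.67 (SE 1.47) and -2.99 (SE 1.47), with adjusted p of 0.816 and 0.737. In Ho against Ctrl the CPM levels of both did not overlap. In the deposited TPM those of ABG768_026316 did, with 2.30 in Ho 2 against 1.66 in Ctrl 1. Neither locus passed in edgeR or, with all fish, in DESeq2. Without Ho 3, DESeq2 gave ABG768_026316 an adjusted p of 0.0448 in Ho against He. It then called 122 of 15749 loci in that comparison, against 19 with all fish. ABG768_026315 supplied 25% (Ctrl 1) to 66.6% (He 2) of the alpha chain level per kb in the 3 wild-type fish, He 1 and He 2, 38.1% in Ho 3 and 0% in He 3, Ho 1 and Ho 2. Within 500 kb of ABG768_026315, none of the 10 tested neighbours outside the MHC had a fish at 0, and their log2 fold changes in Ho against Ctrl ran from -0.32 to 0.40. An unadjusted p under 0.05 in edgeR was found at 1 of the 10 in He against Ctrl (10.4% of all loci). The same held for 0 in Ho against Ctrl (6.5%) and 1 in Ho against He (6.79%). Of the 12 with too few counts for the test, 11 were at 0 in at least 1 fish.

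Other class II chains were high in different fish. The beta chain ABG768_018676 (chromosome 3, 2066083 to 2069703) had 31, 40 and 1 counts for the wild-type fish, 0, 2 and 0 for the heterozygotes and 0, 87 and 0 for the homozygotes. The 3 fish with 31 or more counts, Ctrl 1, Ctrl 2 and Ho 2, were those with the highest summed level of skin epithelial loci. They also had the highest summed pan-leukocyte markers (39.7, 34.1 and 64.2 CPM), with He 2 close at 33.6 CPM. The parts of skin and of leukocytes in this locus were not tested. The log2 fold change of ABG768_018676, 5.27 (SE 2.27 and adjusted p = 0.730 from edgeR) in Ho against He, rested on Ho 2 and was -2.65 without that fish. In He against Ctrl it was -4.68 (SE 2.29 with an adjusted p of 0.524). The beta chain ABG768_026320 on chromosome 8 was also highest in those 3 fish, with 17, 16 and 1 counts for the wild-type fish, 0, 0 and 7 for the heterozygotes and 2, 22 and 4 for the homozygotes. The alpha chain ABG768_018642 (chromosome 3, 25894 to 27888) had 21, 24 and 1 counts for the wild-type fish, 1, 8 and 4 for the heterozygotes and 11, 9 and 2 for the homozygotes, and its log2 fold change in He against Ctrl was -1.58 (SE 0.88 with an adjusted p of 0.566). It lies beside the beta chain ABG768_018643, which had 12, 20 and 1 counts for the wild-type fish, 7, 8 and 9 for the heterozygotes and 7, 3 and 1 for the homozygotes. The 2 neighbours shared their highest fish, Ctrl 2, and a low count in Ctrl 3.

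Such presence in some fish and absence in others was frequent among the chain loci. Of 23 chain loci whose highest fish had 15 to 150 counts, 12 (52.2%) had 0 counts in at least 1 fish, 7 of them class I and 5 class II. Among all loci of the table within the same limits this held for 1339 of 9247 (14.5%), and among the other MHC loci for 0 of 5. These limits were chosen after the values were seen, and count levels within them were not matched between chain loci and all loci. Some of the 12 had low counts throughout, such as ABG768_020476, with 0 counts in He 1 and at most 15 in any fish. With limits of 3 counts or fewer in a fish and 100 or more in another, 2 of the 10 MHC loci that reached 100 counts qualified, ABG768_026315 and ABG768_026316, against 361 of 8601 loci (4.20%) in the table. Without He 2 neither locus reached 100 counts, and none qualified. The fish at 0 differed from locus to locus. ABG768_012190 (chromosome 19, 32521749 to 32575142) was at 0 in Ctrl 3, He 2 and He 3 and had 7 to 17 counts in the other 6 fish. Its neighbour ABG768_012191, with the name MR1, had 59 and 11 counts in Ctrl 1 and Ctrl 2 and 0 to 2 in the other 7. ABG768_017996 had 33 counts and ABG768_026396 had 19 counts in Ho 2, and neither exceeded 2 counts elsewhere. These 4 loci, and ABG768_026320, ABG768_018643, ABG768_012348, ABG768_012353 and ABG768_012354, were chosen after their values were seen. Of the 12 loci, 3, 1 and 4 were at 0 in wild-type fish 1 to 3, 5, 2 and 6 in heterozygotes 1 to 3, and 5, 1 and 4 in homozygotes 1 to 3. The libraries with the fewest counts, Ho 2 (15869084) and Ctrl 2 (15952722), had 1 locus at 0 each. Ctrl 3 (16117713) and Ho 3 (16421296) had 4 each. He 1 (19882056) had 5, He 3 (18129055) had 6, and He 2, with the most counts (21009438), had 2. Summed pan-leukocyte markers were highest in Ho 2, Ctrl 1, Ctrl 2 and He 2 (33.6 to 64.2 CPM), with 1 to 3 loci at 0. They were 16.8 to 25.1 CPM in the other fish, with 4 to 6. The parts of sequencing depth and of leukocytes in these zeros were not tested.

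**Figure D4:**
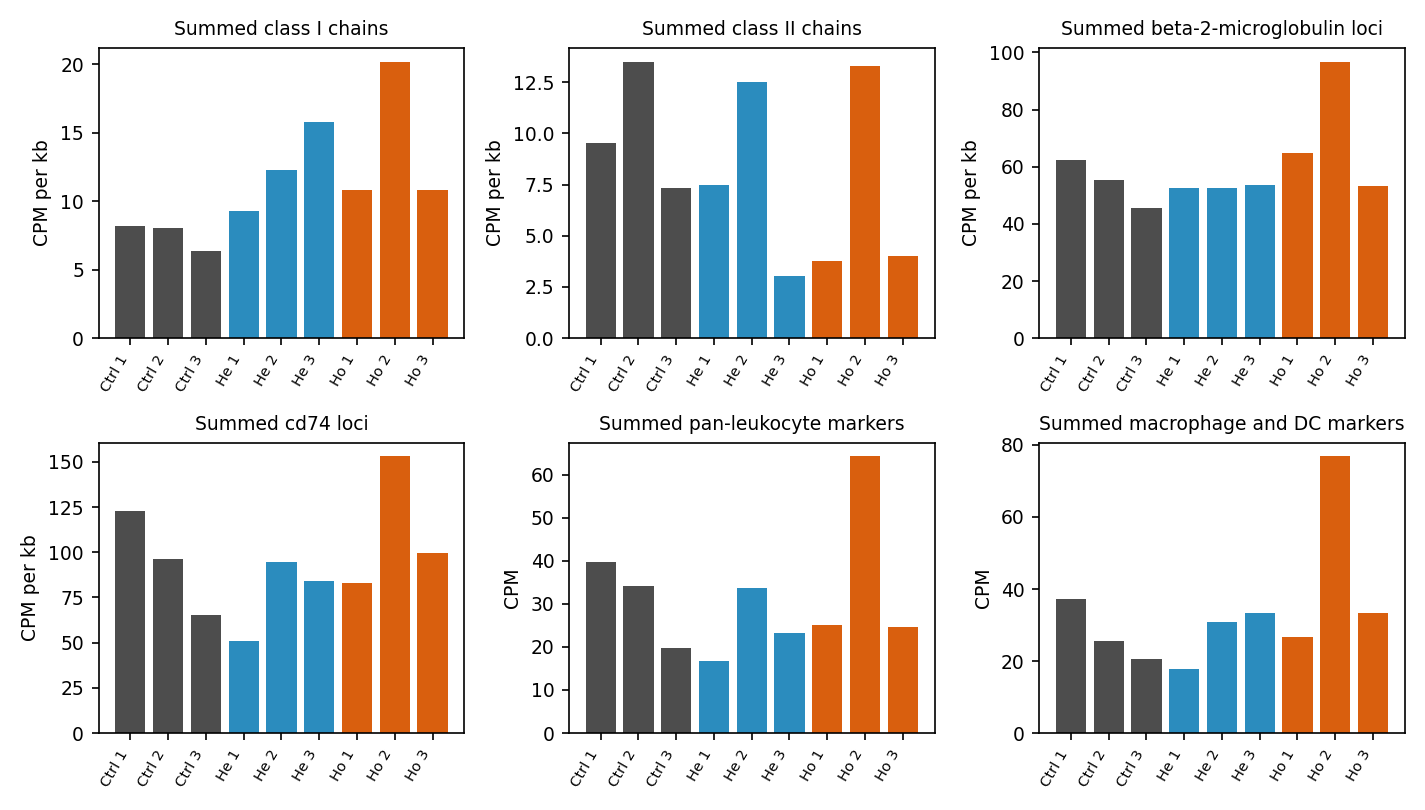
Summed level of MHC chains, light chain, invariant chain and leukocyte markers in each fish. Bars are fish, in grey for Ctrl, blue for He and orange for Ho, and the vertical axis is CPM per kb for the MHC sets and CPM for the marker lists. Class II chains ran from 3.03 in He 3 to 13.5 in Ctrl 2, and Ho 2 had the highest leukocyte marker sums.

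Summed over all 34 loci, class II chains reached 9.51, 13.5 and 7.35 CPM per kb in the 3 Ctrl fish, 7.49, 12.5 and 3.03 in the 3 He fish and 3.78, 13.3 and 4.03 in the 3 Ho fish. The genotypes overlapped, since He 3, Ho 1 and Ho 3 were low and He 2 and Ho 2 as high as the wild type. In the deposited TPM the class II sums were 52.2 in Ctrl 2 and 33.4 in He 2, against 17.4 in Ho 2, and the genotypes overlapped as well. Class I chains with a position exceeded class II chains 5.22-fold in He 3 and made up 0.597 times their level in Ctrl 2. The invariant chain summed to 123, 96.5 and 65.2 CPM per kb in the 3 Ctrl fish, 51.2, 94.8 and 84.3 in the 3 He fish and 82.9, 153 and 99.5 in the 3 Ho fish. In bulk tissue, fewer antigen-presenting cells and less RNA per cell cannot be told apart. The summed pan-leukocyte markers, 9 loci that include ptprc (CD45) and lcp1, stood at 39.7, 34.1 and 19.8 CPM in the 3 Ctrl fish, 16.8, 33.6 and 23.2 in the 3 He fish and 25.1, 64.2 and 24.7 in the 3 Ho fish. He 1 was lowest and Ho 2 highest for both cd74 and these markers. Macrophage and dendritic cell markers (19 loci, 1 at 0 in all fish) ran from 17.8 CPM in He 1 to 76.8 CPM in Ho 2. T cell markers were near 0, with sums of 0.509 to 3.33 CPM over 9 loci of which 0 could be tested, and cd3e had 0 to 2 counts. B cell markers (36 loci) summed to 3.84 to 35.3 CPM. Most of these loci carried the name cd22, among them the highest locus of the list in Ho 2. The defining gene pax5 was at 0 in every fish, cd79a had at most 5 counts in a fish, and cd79b and ighm at most 1. The part of B cells in this sum was not tested. The part of leukocytes in the levels of the MHC genes was not tested.

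**Figure D5:**
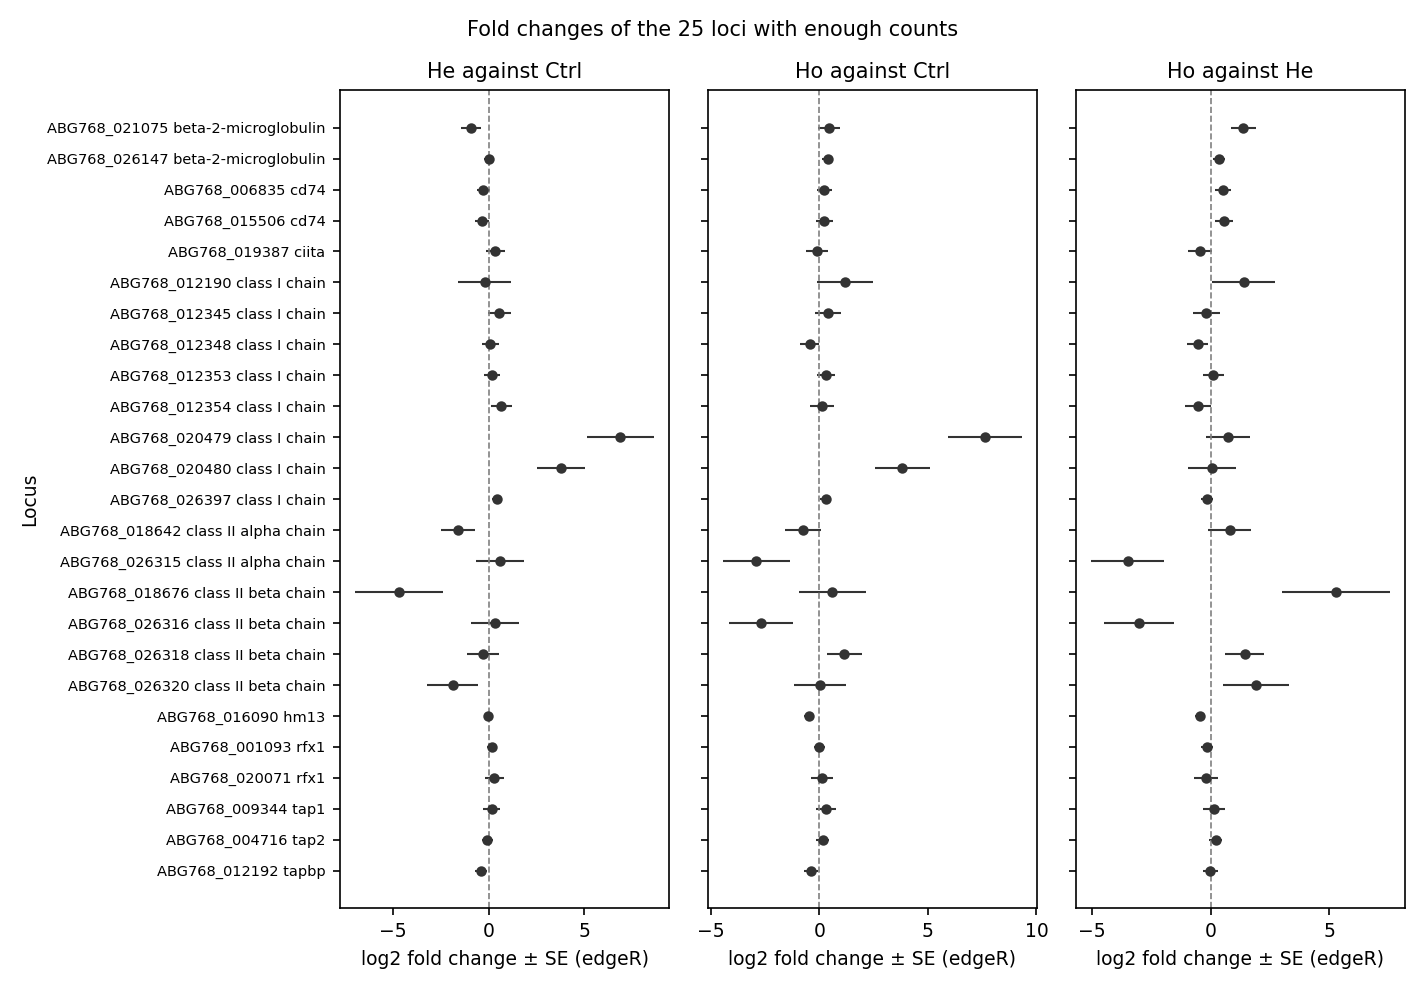
Log2 fold changes of the 25 MHC loci with enough counts, by comparison. Points are estimates from edgeR and lines are 1 SE on either side. ABG768_020479 and ABG768_020480 lie farthest above 0 in both comparisons with Ctrl, and ABG768_026315 and ABG768_026316 lie below 0 in both comparisons of Ho.

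The 3 comparisons ask which genes differ with 1 and with 2 mutant runx2b alleles. Against a threshold of an adjusted p of 0.05 over all 14755 loci tested, edgeR called 0 of 25 MHC loci in He against Ctrl, where 0.0% of all loci were called, 0 of 25 in Ho against Ctrl (0.0% of all loci) and 0 of 25 in Ho against He (0.0% of all loci). At an unadjusted p under 0.05, 2 of 25 were found in He against Ctrl (10.4% of all loci), 2 of 25 in Ho against Ctrl (6.5% of all loci) and 2 of 25 in Ho against He (6.79% of all loci). The 2 loci were ABG768_020479 and ABG768_020480 in both comparisons with Ctrl, which share the Ctrl fish, and ABG768_021075 and ABG768_018676 in Ho against He. DESeq2 called 2 of 21 MHC loci in He against Ctrl, against 1.82% of all loci. It called 1 of 22 in Ho against Ctrl, against 0.437%, and 0 of 22 in Ho against He, against 0.134%. The calls were ABG768_020479 in both comparisons with Ctrl and its neighbour ABG768_020480 in He, which were high in the same fish. Both had 0 to 5 counts in Ctrl and passed the filter through mutants, so these shares do not describe the MHC loci as a set. Levels in CPM without overlap between the groups were found at 0 of 25 loci in He against Ctrl (14.6% of all loci). In Ho against Ctrl these were 5 of 25 (11.2% of all loci) and in Ho against He 1 of 25 (12.3% of all loci). The 5 were ABG768_020479 and ABG768_020480, higher in Ho, and ABG768_026315, ABG768_026316 and hm13, lower in Ho, while the 1 was the class I chain ABG768_012348, lower in Ho than in He.

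The tested loci lay on both sides of 0. In He against Ctrl, 14 of 25 had a log2 fold change above 0 and the median was 0.09, beside -0.01 over all 14755 loci. In Ho against Ctrl, 18 of 25 were above 0 with a median of 0.24, beside -0.01 over all loci. Of the 8 tested class I chains, 7 were above 0 in each of these comparisons, with medians of 0.50 and 0.35. These 8 include ABG768_020479 and ABG768_020480, which had 0 to 5 counts in Ctrl and passed the filter through mutants. ABG768_012191, with 59 and 11 counts in Ctrl 1 and Ctrl 2 and 0 to 2 in the other fish, did not pass it. The filter thus bears on these counts and medians, those over the 25 loci included. Scaling by library totals alone moved the median of all loci to -0.41 in He and -0.24 in Ho against Ctrl, so that small differences of this kind depend on the scale.

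Genes that act with the MHC gave no calls in the same comparisons, in which few loci of any kind were called. Over all loci tested, edgeR called 0.0% in each comparison. DESeq2 called 1.82% in He against Ctrl, 0.437% in Ho against Ctrl and 0.134% in Ho against He. For lists of this size, 0 calls lie near these shares. Immunoproteasome and peptide loading genes (13 of 20 loci tested) and the enzymes of class II processing (10 of 16 loci tested, the cd74 loci among them) had 0 loci past the threshold in edgeR and in DESeq2 in all 3 comparisons. So did the regulators of MHC transcription (18 of 23 loci tested) and the interferon-induced genes (24 of 70 loci tested), which in mammals rise together with class I. At an unadjusted p under 0.05 in edgeR, these lists had 0 to 2 loci in either direction per comparison. Over all loci the share was 10.4% in He against Ctrl, 6.5% in Ho against Ctrl and 6.79% in Ho against He. Median log2 fold changes, in that order of lists, were 0.14, -0.44, 0.08 and -0.18 in He against Ctrl, -0.16, 0.17, 0.06 and 0.06 in Ho against Ctrl, and -0.16, 0.61, 0.04 and 0.32 in Ho against He. For class II processing, 2 loci were lower in He than in Ctrl and 2 were higher in Ho than in He at an unadjusted p under 0.05. In He against Ctrl, 18 of 27 tested skin epithelial loci were lower at an unadjusted p under 0.05, and 8 of them passed in DESeq2. Over all loci and both directions, these shares were 10.4% and 1.82%. The part of skin in the MHC values of these fish was not tested.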

How the data were processed

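Libraries of poly(A) RNA from 9 fish were sequenced as paired ends. The authors aligned clean reads to the C. alburnus genome and deposited, per locus, an estimated count, TPM and FPKM for each library, with annotation from protein databases. The aligner, the counting tool and whether counting used strand are not given in the sources used here. The deposited FPKM values were not used. Columns with the group means of the authors were not used. Estimated counts, not all whole, were rounded to whole numbers.

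Loci were kept by filterByExpr, scaled by TMM (factors 0.708 to 1.40) and tested with the quasi-likelihood F-test of edgeR 4.0.16 under R 4.3.3 (robust glmQLFit), all 9 fish in 1 fit, with Benjamini-Hochberg adjustment over all loci tested. The standard error (SE) was derived from F and the log2 fold change, and approximate intervals are built from it. A locus passed at an adjusted p under 0.05. DESeq2 1.42.0 on the same loci, limma 3.58.1 on log2 of the deposited TPM plus 1 or 0.1, other scalings and filters, and leaving out each fish were the alternatives. The scripts were tested on simulated data in which only well counted loci were changed, so changes at loci with few counts were not covered. CPM values are scaled by TMM. Levels per length divide CPM by the deposited locus length, a scale chosen after it was seen that TPM and counts gave different levels for 2 short assembled loci and for ABG768_026316. A count of 0 over a group was set to 3 counts for a bound. Replicates are single fish, 3 per genotype, and p-values set differences between genotypes against the spread between fish. That spread was estimated over all genotypes together, with information shared across loci.

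Named loci were ABG768_020479, the tap, tapbp, cd74, ciita and beta-2-microglobulin loci, the 6 class I and 6 class II loci with the highest mean TPM, the 4 loci with the smallest unadjusted p per comparison, loci that passed in DESeq2, and loci at 3 counts or fewer in a fish and 100 or more in another. The gene set and the marker lists were chosen with earlier results of these data known. Positions are on the assembly ASM4018292v1. Tables used pandas 2.3.3 and figures matplotlib 3.10.9, under Python 3.11.15.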

Additional observations from a re-analysis of the deposited data

How the results depend on the processing

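In edgeR, 0 MHC loci passed in any comparison under other scalings, filters or thresholds, or with any fish left out. The same held for limma on TPM. Over all loci the calls in these settings were also 0, with few exceptions. With only the 6 libraries compared, 8 of 14240 loci passed in Ho against Ctrl. Without Ctrl 3, 115 of 15757 passed in He and 7 in Ho against Ctrl, and without He 1, 5 of 15533 in each. The other threshold was stricter and could add no call. The filter of 10 counts in every library removed all loci with a fish at 0. DESeq2 called 2 in He against Ctrl and 1 in Ho against Ctrl, and without the filter on low counts, an alternative chosen after seeing the data, 1 and 1. With each fish left out in turn, DESeq2 called 0 to 3 in He against Ctrl, 0 to 3 in Ho against Ctrl and 0 to 1 in Ho against He, and edgeR called 0. Without Ctrl 3, DESeq2 also called ABG768_012191 as lower in both mutants, and without Ho 3 it called ABG768_026316 in Ho against He. Calls over all loci rose in these settings as well. Without Ctrl 3 they numbered 989 of 15757 in He and 534 in Ho against Ctrl, against 252 and 63 with all fish. Without Ho 3 they numbered 122 of 15749 in Ho against He, against 19 with all fish. The sign of ABG768_018676 in Ho against He turned from 5.27 to -2.65 (edgeR) and from 5.71 to -1.64 (DESeq2) without Ho 2, and over all fish left out it ran from -2.65 to 7.86 in edgeR and from -1.64 to 7.07 in DESeq2. Loci with a low and a high fish numbered 2 at limits of 3 and 100 counts, 5 at 3 and 50 counts, and 12 with 0 counts and 15 to 150 in the highest fish, the last chosen after seeing the data. With each fish left out in turn, those at the limits of 3 and 100 counts numbered 0 to 2, and the other limits were not run in this way. In TPM summed over all 29 class I chains, the log2 ratio was -0.34 in He and -0.10 in Ho against Ctrl, and in summed CPM it was 0.54 and 0.70. The negative sign in TPM depended on the 2 short assembled loci. With both left out, the mean TPM sums were 14.4 for the homozygotes, 10.3 for the heterozygotes and 9.32 for the wild-type fish. Both mutant means then lay above the wild type, as in CPM, though single fish overlapped. With ABG768_020479 and ABG768_020480 also left out, the mean TPM sums were 11.4 for the homozygotes, 7.88 for the heterozygotes and 9.13 for the wild-type fish. The heterozygote mean then lay below the wild type. Of the loci on the marker lists, edgeR called 0 in each comparison and 0 to 3 in He against Ctrl with a fish left out. Over all loci, edgeR called 0 in each comparison and 0 to 115 in He against Ctrl with a fish left out. DESeq2 called 9 in He against Ctrl (8 without the filter) and 1 in Ho against Ctrl (1 without the filter). With the filter, 8 of the 9 were skin epithelial loci, lower in He. The list of immune GTPases (gimap genes), with 14 of 131 loci tested, had 1 call in He against Ctrl and 1 in Ho against Ctrl, both higher in the mutants. Over all loci DESeq2 called 252 in He and 63 in Ho against Ctrl (234 and 65 without the filter). With each fish left out, from Ctrl 1 to Ho 3, it called 2, 5, 28, 7, 15, 3, 9, 13 and 10 in He against Ctrl, and from 1 to 9 in Ho against Ctrl and from 0 to 7 in Ho against He. Over all loci, in the same order, it called 24, 57, 989, 124, 323, 82, 189, 278 and 228 in He against Ctrl. In Ho against Ctrl it called 11 to 534 of all loci, and in Ho against He 7 to 134.

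Same-numbered fish did not deviate together, with correlations of deviations from the genotype means of -0.257 to 0.259 over the 9 same-numbered pairs. With the replicate number as a replicate block, edgeR called 0 MHC loci in each comparison, and 0 of all 14755 loci. The log2 fold change of ABG768_020479 was then 6.62 in He and 7.79 in Ho against Ctrl.

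Low counts limit the chains most: 39 of 63 chain loci had under 10 counts in every fish, and a count of 0 allows up to 3 counts. The cause of the fish at 0 was not tested.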

Other observations

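A class I peptide-binding domain was annotated at 37 loci, and 12 of them were not described as MHC genes. The most abundant of the 12 were MHC class I-related loci described as zinc-alpha-2-glycoprotein-like. The assembled locus MSTRG.1685 had 111, 159 and 236 counts for the wild-type fish, 977, 247 and 402 for the heterozygotes and 742, 803 and 557 for the homozygotes. Scaled to CPM it was 4.93 to 17.5 in Ctrl, 10.9 to 69.4 in He and 37.4 to 46.1 in Ho, so that He 2 (10.9 CPM) lay below Ctrl 3 (17.5 CPM) and the 3 Ho fish lay above all Ctrl fish. The log2 fold change from edgeR was 1.85 (SE 0.67 with an adjusted p of 0.393) in He and 2.07 (SE 0.67 with an adjusted p of 0.727) in Ho against Ctrl, so it did not pass. It carried no position here, and its overlap with annotated loci was not tested. ABG768_019154 on chromosome 3 had 463, 684 and 382 counts for the wild-type fish, 315, 453 and 415 for the heterozygotes and 353, 293 and 250 for the homozygotes, with a log2 fold change of -0.60 (SE 0.21 with an adjusted p of 0.732) in Ho against Ctrl. ABG768_020430 (chromosome 3, 64417923 to 64464978), an uncharacterised protein with the Swiss-Prot name H2-Q10, had 7, 15 and 11 counts for the wild-type fish, 4, 12 and 31 for the heterozygotes and 47, 35 and 12 for the homozygotes. These loci were chosen after their values were seen. Of the 12, 8 had at most 22 counts in any fish, and 1 had 0 counts in all fish.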
